A study of Homo sapiens with 8 samples.

Results

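The TAM family comprises the receptor tyrosine kinases TYRO3, AXL and MERTK together with their secreted ligands GAS6 and protein S (gene PROS1). These 5 genes were followed among the 86369 gene identifiers of a count table from HepG2 cells, an established line from a human liver cancer. The set was chosen by the fold change of AXL between siNAT10 and siControl libraries, the strongest named decrease after knockdown of NAT10, an RNA cytidine acetyltransferase. The other genes entered by family and not by their values. Since the change of AXL made the choice, it is given as a description with no test.

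GAS6 and protein S are vitamin K-dependent proteins: a gamma-carboxylated Gla domain binds phosphatidylserine on dying cells, and the far end of the ligand binds the receptor. AXL is bound mainly by GAS6, whereas TYRO3 and MERTK are bound by both ligands. Bound receptors signal through PI3K and AKT and, in macrophages, drive the uptake of dead cells. In liver cancer cells AXL is known for its link to motility and invasion, and hepatocytes are a main source of circulating protein S.

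All 8 libraries came from HepG2 cells grown in DMEM with serum and antibiotics and transfected by lipofection, 4 with a negative control siRNA (siControl) and 4 with an siRNA against NAT10 (siNAT10). RNA was taken 2 days after transfection. Replicates 1 and 2 of both groups formed batch 1, and replicates 3 and 4 formed batch 2. The sequence of the siRNAs and their number are not given in the sources used here, nor is it said whether replicates came from separate cultures, so p-values measure the spread between these libraries, which may be technical. Libraries were read at the 3' end of polyadenylated RNA and held 9731718 to 27977110 counts. Levels are CPM, counts scaled to a common total, on library sizes scaled by the trimmed mean of M-values (TMM). With 3'-end reads a transcript gives counts regardless of its length, so CPM of different genes were set side by side without a length correction. An order of genes by CPM is an order of counts, since loss of reads in the counting was not tested.

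NAT10 stood at 44.7, 39.2, 77.8 and 48.9 CPM in siControl replicates 1 to 4 and at 13.1, 12.2, 20.1 and 22.3 CPM in siNAT10. Hepatocyte markers summed to 9387 to 9868 CPM in siControl and 7555 to 8134 CPM in siNAT10. Of the 8 tested, 1, the transferrin gene TF, was called lower, which cannot be told from the 1.46% called lower over all tested genes. APOB, an apolipoprotein that HepG2 cells are known to secrete, held 7 counts in 1 library and 0 in the rest. SERPINA1, the liver gene of alpha-1 antitrypsin, stood at 5.91 ± 5.01 CPM in siControl and 4.02 ± 3.20 CPM in siNAT10 (SD, n = 4 each). The widely expressed kinase gene SRC and HRAS, both on the list of signal relay genes, held 0 counts in all 8 libraries. Whether the counting lost reads of these or other listed genes was not tested, and a gene that did not pass the filter is not shown to be silent. Macrophage markers summed to 408.9 to 556.2 CPM in siControl and 332.8 to 388.5 CPM in siNAT10, nearly all of it LYZ (475.4 CPM in siControl and 355.5 CPM in siNAT10, called lower), while 4 of 10, CD5L, CLEC4F, PTPRC and VSIG4, were at 0 throughout. Endothelial markers summed to at most 1.55 CPM in any library. Stellate cell and fibroblast markers summed to 31.5 to 42.0 CPM in siControl and 29.0 to 36.8 CPM in siNAT10, most of it ACTA2, with COL1A2, COL3A1, DCN and LUM at 0. The part of these marker differences in the results was not tested. In bulk RNA, fewer cells with a transcript and less transcript per cell cannot be told apart.

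AXL (ENSG00000167601; GRCh38 chromosome 19, 41219223 to 41261766, plus strand) has 20 exons in its canonical GENCODE transcript and a 3' UTR of 1862 bases. The 3' UTR holds, in exon 20, the 7 letters GTCTCTA that also occur in exon 11 of NAT10, within its coding sequence. Earlier work on these data had picked this heptamer because transcripts carrying it were lower as a class, so it is no independent observation. The 30-base windows around it are shown because they hold the stretch that AXL shares with the targeted transcript. Capitals mark the heptamer. The AXL window lies at chr19:41260248-41260277 and the NAT10 window at chr11:34124317-34124346, both GRCh38, plus strand.
AXL, 3' UTR: gaaattccaaaGTCTCTAattctattaaag
NAT10, coding sequence: gagattatccaGTCTCTAaatcctgaattt
With 1 matching base on either side, the run common to both is AGTCTCTAA, 9 bases long, and it occurs in 0.781% of 10884 tested protein-coding 3' UTRs. The heptamer was in none of the canonical 3' UTRs, coding sequences or 5' UTRs of TYRO3, MERTK, GAS6 and PROS1, whose 3' UTRs measure 5313, 697, 315 and 1194 bases. The heptamer was in 15.4% of those 10884 3' UTRs, and 88 of the 1678 genes that carry it (5.24%) were called lower in siNAT10, against 93 of 9206 (1.01%) without it and 1.66% of all 10884. Carriers also had longer 3' UTRs, with a median of 3233 against 1083 bases. Of the 85 genes with the 9-base run, 11 (12.9%) were called lower, AXL among them. The run was defined from AXL, which was chosen for its fall, and around a heptamer picked on these data, so these shares are a description and support nothing. The part of this shared sequence in the fall of AXL was not tested.

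AXL was lower in every siNAT10 library than in every siControl library. It stood at 21.3, 23.5, 21.6 and 25.5 CPM in siControl replicates 1 to 4 and at 8.32, 7.16, 9.02 and 12.1 CPM in siNAT10. The group means were 23.0 ± 1.96 and 9.16 ± 2.12 CPM (SD, n = 4 each). These levels rest on 353 to 586 AXL counts per siControl library and 115 to 206 per siNAT10 library. The fitted log2 fold change of -1.35 (SE 0.14) corresponds to 39.1% of the control level. Over all 13840 tested genes, 2.28% were called at an adjusted p under 0.05 (1.46% lower, 0.816% higher), and 5.40% had groups that did not overlap (3.15% with every siNAT10 library below, 2.25% above). These shares are given as background only, since this contrast chose AXL.

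Among called genes with a symbol and a mean of at least 8 CPM, AXL came directly after NAT10 (-1.66, SE 0.14) and directly before MATN3 (-1.33, SE 0.12). This place was largely fixed in advance, because the siRNA contrast chose AXL as the strongest named decrease. In all, 3 called genes had a larger fall than AXL, 2 of them below that level or without a symbol. Among all tested genes, called or not, 17 had a larger fall. The fall of AXL was -1.53 on the log2 scale in batch 1 alone and -1.15 in batch 2 alone. The difference of 0.38 (SE 0.27) between the batches did not pass edgeR's test of the interaction, with an unadjusted p of 0.19 and an adjusted p of 1.00. With any single library left out, the log2 fold change of AXL ran from -1.47 to -1.26. These values come from the contrast that chose AXL and are a description only.

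**Figure D1:**
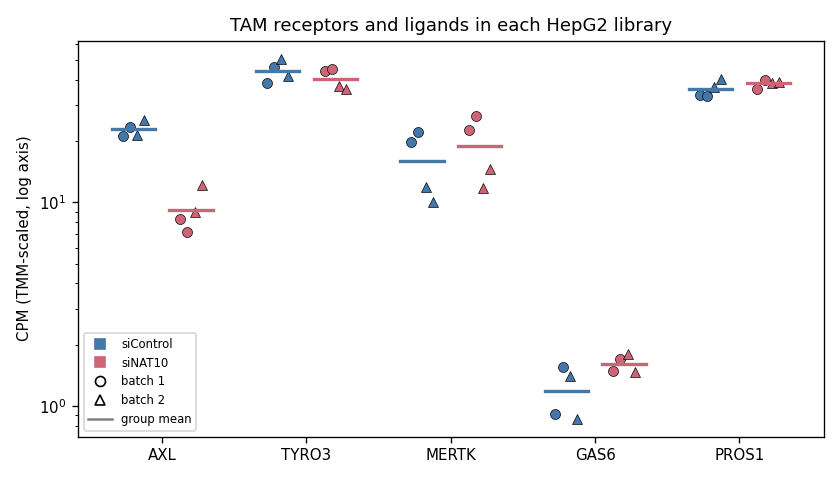
Level of each TAM receptor and ligand gene in every library, in TMM-scaled CPM on a log axis. Each point is 1 library (circles batch 1, triangles batch 2) and each bar a group mean of 4 libraries. The 4 siNAT10 points of AXL, at most 12.1 CPM, lie below the 4 siControl points, at least 21.3 CPM, and MERTK is split by batch.

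TYRO3 (ENSG00000092445; chromosome 15, 41557675 to 41583589, plus strand), the receptor best known from the nervous system, had the highest CPM of the TAM receptors in every library. It stood at 38.8, 46.5, 51.0 and 41.8 CPM in siControl and at 44.1, 45.2, 37.2 and 36.0 CPM in siNAT10. The groups overlapped, with means of 44.5 ± 5.34 and 40.6 ± 4.71 CPM (SD, n = 4 each). The log2 fold change was -0.13 with a 95% interval of -0.38 to 0.11, or 76.8% to 108% of the control level (edgeR quasi-likelihood test, adjusted p 0.64). In batch 1 alone it was 0.071 and in batch 2 alone -0.34, and it passed the threshold in neither.

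MERTK (ENSG00000153208; chromosome 2, 111898607 to 112029561, plus strand), the receptor that macrophages use to take up apoptotic cells, had values that followed the batch more than the siRNA. Batch 1 libraries stood at 19.8 and 22.3 CPM in siControl and at 22.8 and 26.7 CPM in siNAT10. Batch 2 libraries stood at 11.9 and 10.0 CPM in siControl and at 11.8 and 14.6 CPM in siNAT10. Every batch 2 library lay below every batch 1 library, as did 11.2% of tested genes. MERTK was called lower in batch 2 with a log2 fold change of -0.92 (SE 0.13, 95% interval -1.19 to -0.66; edgeR adjusted p 8.4e-05), or 52.7% of batch 1. This contrast did not choose the genes, and 25.3% of all tested genes were called in it (12.2% lower). MERTK was its only call among the 5 TAM genes.

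Against this batch difference the siRNA effect on MERTK was small. The log2 fold change was 0.24 with a 95% interval of -0.02 to 0.51, or 98.6% to 142% of the control level (edgeR adjusted p 0.36). Within a batch, 1 of the 8 pairs of an siNAT10 with an siControl library had the lower MERTK level in siNAT10. The effect was 0.24 in batch 1 and 0.26 in batch 2.

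The order of AXL and MERTK by CPM differed between the groups, though not clearly in every library. In siControl, AXL was above MERTK in all 4 libraries, although the ranges of the genes overlapped across batches (21.3 to 25.5 and 10.0 to 22.3 CPM). In siNAT10, AXL was below MERTK in all 4 libraries, again with overlapping ranges (7.16 to 12.1 and 11.8 to 26.7 CPM). The genes were close in siControl replicates 1 and 2, with 586 and 408 AXL counts beside 546 and 387 MERTK counts. In siNAT10 replicates 3 and 4 there were 115 and 124 AXL counts beside 150 and 149 MERTK counts. In these libraries the Wilson intervals of the genes for counting error overlapped, so their order there is uncertain. In the remaining libraries of both groups the intervals did not overlap. The change of order rests on the contrast that chose AXL and was not tested.

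The counts of the 3 receptors were then expressed as shares of their sum in each library, which removes the scaling between libraries. AXL took 26.6%, 25.5%, 25.5% and 33.0% of receptor counts in siControl replicates 1 to 4 and 11.1%, 9.06%, 15.6% and 19.3% in siNAT10. The mean share went from 27.6% ± 3.60 to 13.8% ± 4.61 (SD, n = 4 each) without overlap. This fall restates the contrast that chose AXL, so it is no separate result and was not tested. The shallowest library, siNAT10 replicate 4, held 641 receptor counts, and its share of 19.3% has a 95% Wilson interval of 16.5% to 22.6% for counting error only. TYRO3 held the largest share in every library, 48.5% to 60.3% in siControl and 57.2% to 64.1% in siNAT10. MERTK took 24.8% and 24.1% in the siControl libraries of batch 1 and 30.3% and 33.8% in the siNAT10 libraries beside them. In batch 2 its share was 14.1% and 13.0% in siControl and 20.3% and 23.2% in siNAT10. A share rises when another falls, so these rises are no separate result. The summed level of the receptors was 83.5 ± 6.52 CPM in siControl and 68.7 ± 10.0 CPM in siNAT10 (SD, n = 4 each), with overlapping ranges.

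**Figure D2:**
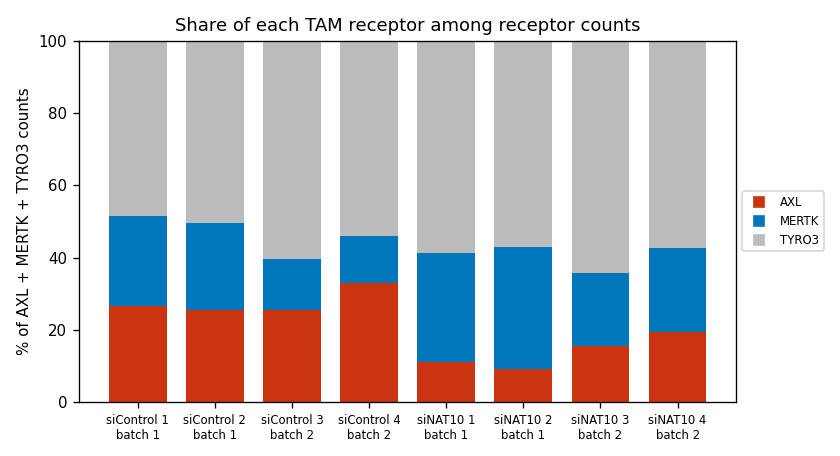
Share of AXL, MERTK and TYRO3 in the summed counts of the 3 receptors, in percent, 1 bar per library. The AXL segment lies between 25.5% and 33.0% in siControl and between 9.06% and 19.3% in siNAT10, and the MERTK segment is smaller in batch 2 in both groups.

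Of the ligands, PROS1 had the higher CPM. PROS1 (ENSG00000184500; chromosome 3, 93873051 to 93980003, minus strand) encodes protein S, which is also a plasma anticoagulant. It stood at 33.9, 33.4, 36.9 and 40.6 CPM in siControl and at 36.0, 40.1, 38.7 and 39.0 CPM in siNAT10. The groups overlapped, with means of 36.2 ± 3.33 and 38.5 ± 1.75 CPM (SD, n = 4 each). The log2 fold change was 0.09 with a 95% interval of -0.12 to 0.31, or 92.1% to 124% of the control level (edgeR adjusted p 0.72).

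GAS6 (ENSG00000183087; chromosome 13, 113820549 to 113864076, minus strand), the high-affinity ligand of AXL, was near the lower end of what was tested. Its libraries held 25, 27, 30 and 12 counts in siControl and 27, 49, 23 and 15 in siNAT10, or 0.909, 1.55, 1.41 and 0.867 CPM and 1.48, 1.70, 1.80 and 1.47 CPM. The groups overlapped. The log2 fold change was 0.45 with a 95% interval of -0.21 to 1.11, or 86.4% to 216% of the control level (edgeR adjusted p 0.53). At this depth a change of any size within that interval is not excluded. GAS6-AS1, on the other strand, covers the 3' end of GAS6. Whether reads were counted by strand is not stated, so the count of GAS6 is uncertain. GAS6-AS1 itself held 2 to 36 counts and had a log2 fold change of 1.24 (SE 0.39; edgeR adjusted p 0.12), with each siNAT10 library above both siControl libraries of its batch.

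Thus 0 of the 4 genes that entered by family were called in edgeR's quasi-likelihood test of the siRNA, where 2.28% of all tested genes were. None of them had an unadjusted p under 0.05, and DESeq2 called 0 of the 3 for which it gave an adjusted p, which left out GAS6. The intervals of TYRO3, MERTK and PROS1 did not reach the size of the AXL change, though the difference between genes was not tested because AXL was chosen for its change. In siControl the levels descended from TYRO3 and PROS1, whose ranges overlapped, through AXL and MERTK, whose ranges also overlapped, to GAS6. AXL, TYRO3, GAS6 and PROS1 did not pass the test between batches, with log2 fold changes of 0.24 (95% interval -0.06 to 0.53), -0.08 (-0.33 to 0.17), -0.0048 (-0.68 to 0.67) and 0.12 (-0.10 to 0.33) and edgeR adjusted p from 0.23 to 0.99.

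**Figure D3:**
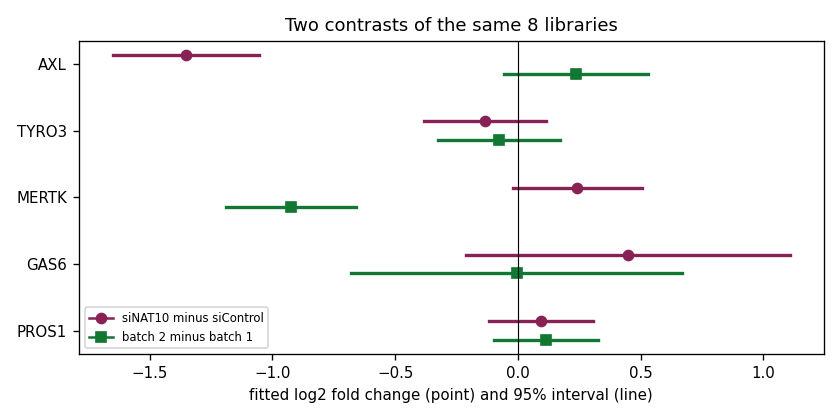
Fitted log2 fold changes (points) with 95% intervals (lines) of the 5 genes in the siRNA contrast and in the batch contrast of the same 8 libraries. AXL lies at -1.35 in the siRNA contrast and MERTK at -0.92 in the batch contrast, and the other intervals include 0.

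The neighbourhoods and copies of these genes bear on their counts. HNRNPUL1, on the same strand, starts 730 bases after the end of AXL. Its log2 fold change was -0.15 (SE 0.10; edgeR adjusted p 0.54), at 176.3 CPM in siControl and 159.5 CPM in siNAT10. The antisense transcript ENSG00000269652, inside AXL, held at most 3 counts in any library. TYRO3P and PROS2P, pseudogene copies of TYRO3 and PROS1, held 0 counts in all 8 libraries. How reads that match both a gene and its copy were treated is not stated, so the counts of TYRO3 and PROS1 are uncertain to that extent.

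AXL was next placed among the receptor tyrosine kinases, the cell-surface receptors for growth factors. Of 58 genes of this class, 24 passed the filter on low counts. AXL ranked 16th in mean level. It had the lowest fold change and the largest in size, a place largely fixed in advance because this contrast chose AXL. The highest mean CPM were those of EPHA2 (526.0 ± 164.5 CPM in siControl), PTK7, EPHB4, FGFR3 and ERBB3 (211.1 ± 13.3 CPM), and of these FGFR3 alone was called. FGFR3, a receptor for fibroblast growth factors, rose from 227.9 ± 23.8 to 307.9 ± 25.2 CPM (SD, n = 4 each), a log2 fold change of 0.44 (SE 0.11; edgeR adjusted p 0.042). Its siControl libraries stood at 198.2, 224.6, 255.8 and 233.2 CPM and its siNAT10 libraries at 295.1, 341.6, 311.6 and 283.5 CPM, without overlap. Groups did not overlap in 5.40% of all tested genes (2.25% with every siNAT10 library above). The call of FGFR3 was lost in 6 of the 8 fits that left out 1 library, where adjusted p ran from 0.089 to 0.17, and held without siControl replicate 3 or siNAT10 replicate 4.

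Without the TAM receptors, 1 of 21 tested receptor tyrosine kinases was called in the siRNA contrast, with a median log2 fold change of 0.11, beside -0.0024 over all tested genes, and 1 call in a list of this size cannot be told from the 2.28% called over all tested genes. MET, the receptor for hepatocyte growth factor, stood at 53.6 CPM in siControl and 43.3 CPM in siNAT10 (log2 fold change -0.29; edgeR adjusted p 0.15). MST1R, the MET relative for macrophage-stimulating protein, had the next lowest value after AXL, -0.98 (SE 0.37; edgeR adjusted p 0.19), at 1.36 CPM in siControl and 0.691 CPM in siNAT10. MET and MST1R were picked after their values were seen. In the batch contrast 6 of 24 receptor tyrosine kinases were called, MERTK among them, all lower in batch 2. Over all tested genes, 25.3% were called (12.2% lower). The share called in either direction was near that background, while the share called lower was above it. This difference was not tested.

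**Figure D4:**
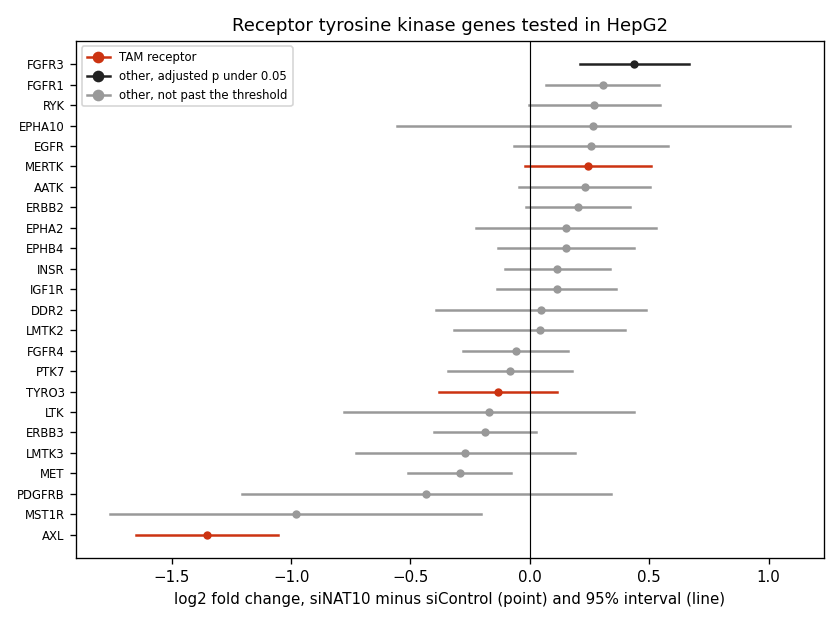
Log2 fold change between siNAT10 and siControl (points) with 95% intervals (lines) for the 24 receptor tyrosine kinase genes tested, sorted by value. AXL, which this contrast chose, lies at -1.35. TYRO3 at -0.13 and MERTK at 0.24 lie among the other receptors, of which FGFR3 at 0.44 passed the threshold.

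The genes that relay TAM signals inside the cell showed 1 call, near the 2.28% of all tested genes. Of 37 listed genes, from adaptors and PI3K subunits to AKT, the RAS and MAP kinases, RAC1, STATs and focal adhesion kinase, 32 were tested. SOS1, which loads RAS with GTP, was called higher, at 90.2 ± 34.5 CPM in siControl and 122.7 ± 55.4 CPM in siNAT10 (SD, n = 4 each; log2 fold change 0.41, SE 0.10; edgeR adjusted p 0.039). SOS1 was also higher in batch 2 (log2 fold change 1.09), and its call was lost in all 8 fits that left out 1 library, with adjusted p from 0.057 to 0.14. The median log2 fold change of the relay genes was 0.04, with 18 of 32 above 0. AKT1 and AKT2, central kinases of the PI3K branch, had values of -0.06 and 0.04, and STAT3 had -0.15, none past the threshold.

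Among 16 genes listed as brakes on receptor kinases, all tested, 0 were called (edgeR), with a median log2 fold change of 0.03. The list does not show that each gene acts only as a brake. The group holds ADAM10 and ADAM17, the proteases that shed AXL and MERTK from the cell surface. ADAM17 had the largest change at a mean of at least 8 CPM, from 150.8 ± 27.8 to 112.2 ± 12.7 CPM (SD, n = 4 each; log2 fold change -0.41, SE 0.11; edgeR adjusted p 0.061), whereas ADAM10 had a value of 0.27 (edgeR adjusted p 0.18). DUSP6, a phosphatase that switches off ERK, followed at -0.40 (SE 0.11; edgeR adjusted p 0.079). The cytokine suppressors SOCS1 and SOCS3, which TAM receptors are known to induce in immune cells, had values of 0.23 and 0.06, neither past the threshold.

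Transcription factors reported at the AXL promoter were listed as 16 genes, of which 15 were tested and 1 was called in the siRNA contrast, where 2.28% of all tested genes were called (1.46% lower). That gene was EPAS1, which encodes the hypoxia-inducible factor HIF-2 alpha. EPAS1 stood at 140.6, 114.2, 67.7 and 85.5 CPM in siControl and at 87.1, 90.1, 48.8 and 51.3 CPM in siNAT10, lower in siNAT10 within each batch. Its log2 fold change was -0.57 (SE 0.11; edgeR adjusted p 0.011), and the call was lost without siControl replicate 1 or siNAT10 replicate 2 (adjusted p 0.059 to 0.066). SP1 and SP3, which bind GC boxes, had log2 fold changes of -0.01 and 0.17. YAP1, the co-activator that works through the TEAD factors, had 0.32, and TEAD1 to TEAD4 ran from -0.41 for TEAD2 to 0.22 for TEAD1. None of these passed the threshold, and the median of the list was -0.01.

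The promoter of AXL is shown because these factors are known to act there. The 250 bases before its main RefSeq start (GRCh38.p14, chr19:41218973-41219222, plus strand) have a GC content of 64.4%. Capitals mark matches to the GC box GGGCGG on either strand.
AXL promoter: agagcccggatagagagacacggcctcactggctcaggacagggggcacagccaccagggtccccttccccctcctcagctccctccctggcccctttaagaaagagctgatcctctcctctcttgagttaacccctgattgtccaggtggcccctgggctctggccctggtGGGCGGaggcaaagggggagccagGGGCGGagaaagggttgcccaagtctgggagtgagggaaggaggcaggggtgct
The window holds 2 GC boxes, and 42.6% of the 35116 promoter windows of that length in the RefSeq table hold at least 1. The main promoters of TYRO3, MERTK, GAS6 and PROS1 hold 3, 4, 3 and 2. On both strands, the letters TGANTCA of AP-1 (in 6.57% of windows), GGAATG of TEAD factors (11.9%) and ACGTG of hypoxia-inducible factors (18.5%) were not in this AXL window. Among the main windows of the other 4 genes there was 1 further match, TGANTCA in TYRO3. A second AXL start in the table, downstream of the first, had 1 GGAATG and 2 ACGTG matches before it. These matches are letters only, and no factor binding was measured.

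The vitamin K-dependent proteins share the Gla domain of GAS6 and protein S. Beside these ligands, 9 of 13 listed genes were tested and 0 were called (edgeR). All 9 values were below 0, with a median log2 fold change of -0.18, where 6968 of all 13840 tested genes were below 0. Of the 8 tested hepatocyte markers, 6 were below 0, with a median of -0.29, so the direction was not particular to this list. Prothrombin (F2) stood at 1025 ± 80.1 CPM in siControl and 843.8 ± 108.6 CPM in siNAT10 (SD, n = 4 each; log2 fold change -0.28, SE 0.12; edgeR adjusted p 0.24). PRRG1, a transmembrane Gla protein, had -0.49 (SE 0.13; edgeR adjusted p 0.056). PROC, whose product uses protein S as cofactor, had -0.18, beside 0.09 for PROS1.

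Of the 8 genes for gamma-carboxylation, the vitamin K cycle and propeptide cleavage, all tested, 1 was called, beside 2.28% of all tested genes. FURIN, a protease that removes propeptides, fell from 203.9 ± 29.3 to 140.5 ± 22.1 CPM (SD, n = 4 each; log2 fold change -0.54, SE 0.12; edgeR adjusted p 0.023). Its call was lost in 4 of the 8 fits that left out 1 library, where adjusted p ran from 0.050 to 0.10. These left out siControl replicate 2 or siNAT10 replicate 1, 2 or 4. GGCX, the carboxylase, and VKORC1, the vitamin K epoxide reductase, had values of -0.18 and -0.17 that did not pass. The 5 partners of protein S held 0 calls (edgeR) and a median of -0.0033. Their largest values were -0.39 for F5 (SE 0.11; edgeR adjusted p 0.080) and 0.27 for C4BPA (SE 0.11; edgeR adjusted p 0.24), the C4b-binding protein chain.

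Phosphatidylserine is the lipid that bridges TAM ligands to dying cells. Of 18 genes for its exposure and recognition, 13 were tested, with a median log2 fold change of -0.02, and MFGE8 was among those called lower. Over all tested genes, 1.46% were called lower. MFGE8 encodes a secreted protein that, like GAS6, links phosphatidylserine to a receptor, in its case the alpha-v integrins. MFGE8 stood at 13.9, 15.4, 12.6 and 10.3 CPM in siControl and at 8.59, 6.54, 5.96 and 5.87 CPM in siNAT10, so the groups did not overlap. The same held for 5.40% of all tested genes (3.15% with every siNAT10 library below). MFGE8 fell from 13.1 ± 2.13 to 6.74 ± 1.27 CPM (SD, n = 4 each), a log2 fold change of -0.96 (SE 0.15; edgeR adjusted p 0.0026), and was called in all 8 fits that left out 1 library. The integrin genes ITGAV and ITGB5 had values of -0.02 and -0.24, not past the threshold. LGALS3, reported as a further TAM ligand, stood at 129.4 ± 26.1 and 106.8 ± 18.7 CPM (log2 fold change -0.27, SE 0.10; edgeR adjusted p 0.18), and TUB and TULP1, reported likewise, did not pass the filter. Without the batch term in the fit, the calls of FGFR3, SOS1, EPAS1, FURIN and MFGE8 were all lost (edgeR adjusted p 0.10 for MFGE8 to 0.83 for SOS1).

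**Figure D5:**
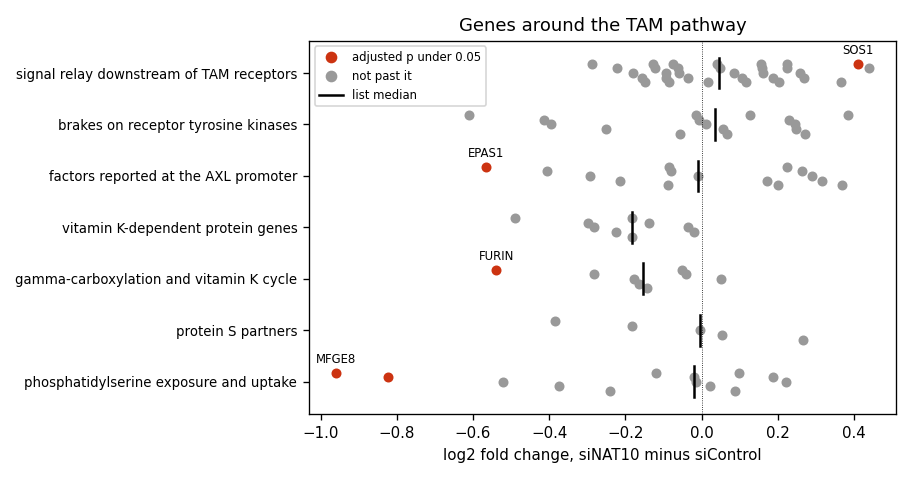
Log2 fold change between siNAT10 and siControl of each tested gene in 7 lists around the TAM pathway, 1 point per gene, with the list median as a bar and the 5 TAM genes left out. SOS1 is the call above 0, and EPAS1, FURIN and MFGE8 are the labelled calls below 0.

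The genes whose log2 CPM followed that of AXL most closely over the 8 libraries were CITED2 (Pearson r 0.98, Spearman rho 0.88), MATN3 (0.98, 0.95), SCRN1 (0.97, 0.81), PHACTR4 (0.97, 0.93) and KIF3B (0.97, 0.86), out of 8588 genes with a mean of at least 8 CPM. The 8 libraries fall into the siRNA groups, so these values chiefly restate a shared difference between groups and carry no p. CITED2, a transcriptional co-regulator, stood at 59.7 CPM in siControl and 35.1 CPM in siNAT10 (log2 fold change -0.77). SCRN1 stood at 57.1 and 29.6 CPM (-0.95), and PHACTR4 at 174.5 and 128.5 CPM (-0.44). Among the TAM genes the Pearson r with AXL was 0.23 for TYRO3, -0.39 for MERTK, -0.68 for GAS6 and -0.38 for PROS1.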

How the data were processed

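The authors deposited whole-number counts per Ensembl gene for 8 libraries, per the labels. Reads were trimmed with Trim Galore 0.6.10 and cutadapt 3.5, aligned to GRCh38 with STAR 2.7.9a and counted with featureCounts, per the submitters' processing notes. The annotation release, strand setting and treatment of multiply mapped reads are not given in the sources used here, and the orientation of the QuantSeq kit is unsettled, since the sample protocols name the reverse version and the study design the forward one. Columns were matched to samples by the column named in each description, and 0 columns were unused.

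Of 86369 identifiers, 61458 matched GENCODE 44. Genes were kept by filterByExpr (minimum count 10) and tested in R 4.3.3 with edgeR 4.0.16 (TMM, quasi-likelihood F test, batch and siRNA as additive terms, Benjamini-Hochberg over all 13840 genes, threshold 0.05). The batch term and the interaction were tested likewise. Standard errors come from the F statistic and 95% intervals from its degrees of freedom. Correlations used log2 CPM with a prior count of 2. The fit was also run on simulated counts that held no batch differences, so that run does not bear on the batch term. Intervals cover counting error only where so named, since the labels name no molecular identifiers.

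The members, gene lists, heptamer and tests were chosen with earlier results of these data known. Named were the 5 members, NAT10, the 5 genes most like AXL, neighbours within 5 kb and pseudogenes, called members of each list or, with none, the 2 of largest change at a mean of at least 8 CPM, and the 5 most abundant receptor kinases. Alternatives were DESeq2 1.42.0, RLE factors, library size alone, 2 other filters, a robust fit, no batch term, a replicate block, each batch alone and each library left out. Same-numbered libraries deviated together (correlations across genes of 0.39, 0.38, 0.45 and 0.36), but so did differently numbered pairs of the same batch (0.50, 0.38, 0.33 and 0.14), while pairs across batches ran from -0.47 to -0.23, so these values follow the labelled batch and not the number alone. Protein sequences were not used here, and 1 called list gene is not reported here.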

Additional observations from a re-analysis of the deposited data

Results flagged for a closer look

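The share of AXL among receptor counts in siControl replicate 4 was 33.0%, apart from the 25.5% to 26.6% of the other siControl libraries, and its gap to the nearest of them took up 0.84 of the group's range. It was the 1 such library among 14 groups of 4 values examined, where chance gives about 1 in 20.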

How the results depend on the processing

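AXL kept its direction under all 18 alternatives, with a log2 fold change of -1.53 in batch 1 alone and -1.15 in batch 2 alone as extremes. These fits use the libraries and the contrast that chose AXL, so its kept direction is a description and no support. TYRO3, MERTK, GAS6 and PROS1 passed the threshold in none of the same alternatives in which they had an adjusted p. Their direction held except for TYRO3 in batch 1 alone (0.071). The number of called genes was 315, and it was 601 with DESeq2, 595 with no filter on low counts, 15 without the batch term, 173 in batch 1 alone, 0 in batch 2 alone (946 of 13433 at an unadjusted p under 0.05), and 75 to 286 with 1 library left out, lowest without siNAT10 replicate 2. The interaction had 0 calls (421 at an unadjusted p under 0.05), 1 with DESeq2, 15 with no filter on low counts, and 0 to 2 with 1 library left out. The near-zero difference of the MERTK effect between batches (0.010) was -0.018 with no filter and -0.17 to 0.15 with 1 library left out, the GAS6 difference between batches ran from -0.15 to 0.16, and the difference of its siRNA effect from -0.32 to 0.50. The cause of these shifts was not tested. The MERTK call between batches held under every alternative run for it. Scaling by library size alone moved the median log2 fold change of the tested genes to 0.037, and calls then split into 138 higher and 149 lower in place of 113 and 202. With the replicate number as a block, 454 genes were called and the log2 fold change of AXL was -1.36, and the block changed no call of the 4 other TAM genes (adjusted p 0.34 to 0.70). The 8 left-out fits of single genes other than the TAM members were chosen after seeing the data. Depth limits GAS6 most, with 12 to 49 counts per library.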

Other observations

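Some genes around the TAM pathway were called between the batches, as were 25.3% of all tested genes (12.2% lower and 13.0% higher in batch 2). Of the 15 tested factors reported at the AXL promoter, 7 were called lower in batch 2 and 0 higher (edgeR), with a median log2 fold change of -0.35, where 12.2% of all tested genes were called lower. They were FOS, WWTR1, TEAD2, TEAD3, TEAD4, HIF1A and EPAS1, of which FOS, an immediate-early gene, had -1.49 and EPAS1 -0.78. Of 16 genes listed as brakes on receptor kinases, 3 were lower in batch 2 and 1 higher, a share near that background. SOCS3, a brake on cytokine signalling, had the largest value, -2.78, and the ubiquitin ligase CBL had -0.72. Of 32 relay genes, 10 were called, 6 higher and 4 lower, a share not far from the 25.3% of all tested genes. Among the 10 were SOS1 at 1.09 and TNS2, an AXL-binding tensin, at -1.33. These genes were singled out after their values were seen.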
